A study of Mus musculus with 14 samples.

Results

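Mammary tumors of MMTV-neu mice labelled set B (2 arrays, tumors 80 and 81) were compared with wild-type mammary gland (3 arrays, pools 40, 41 and 42) across all probe sets. These 5 arrays were chosen by their titles alone, out of 14 in the series. MMTV-neu mice carry the neu oncogene, a receptor tyrosine kinase, driven by the MMTV promoter (from mouse mammary tumor virus), which is active mainly in mammary epithelium. Set B was described as a second group of tumors, profiled to see whether changes found in the first tumors recur. The age and strain of the tumor mice are not given in the labels. Each wild-type pool held RNA of 5 mice. Pool 40 came from mice of 31 weeks with a background of 87.5% FVB and 12.5% CF-1. Pools 41 and 42 came from mice of 41 weeks with 97% FVB and 3% CF-1. The other arrays were 5 first tumors of MMTV-neu mice and 4 glands adjacent to tumors, which entered the fit. Nothing in the labels says that the set B tumors came from separate mice, so they may stand for a single mouse. Their spread may then be technical or within that mouse, and not between mice. Each p-value rests on a spread pooled over all 14 arrays, first tumors and adjacent glands included. It covers the samples in the fit alone, and it is not the spread of set B and the pools by themselves.

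The virgin mammary gland is mostly a fat pad crossed by thin epithelial ducts, with fibroblasts, vessels, nerves and immune cells between them. A mammary tumor is made largely of epithelial cells. A bulk RNA measurement of either one is therefore a mixture over cell types. Fewer cells of a type and less RNA per cell cannot be told apart in such data. The neu receptor signals through the ERK kinase cascade, which switches on its own inhibitors as feedback.

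The arrays were scaled to a common level, with means after trimming of 1500.7 to 1500.9. Median intensities were 544 and 580 in set B and 593 to 618 in wild type. The highest intensity was 63654 on the array of tumor 80 and 51814 on that of tumor 81, and between 93185 and 204436 on the other 12 arrays. The 3′ to 5′ signal ratio of actin, a sign of RNA quality, was 0.21 and 0.14 on the log2 scale in set B, against 1.10, 0.90 and 1.51 in the pools. That of Gapdh was -0.28 and -0.50, against 0.17, 0.11 and 1.48. Both set B arrays were of lot 2006609, which held no other sample, so lot and set B cannot be told apart. The part of RNA quality in the results was not tested. Intensities under a floor of 101 were set to it, and a fold against a group wholly at the floor is written as at least.

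Set B and wild-type gland differed widely. Of 6578 genes tested, 1522 were called at an adjusted p under 0.05 (limma, Benjamini-Hochberg), which is 23.1%. Of these, 720 were higher in set B (10.9%) and 802 were lower (12.2%). Called counts of the gene lists below are to be read beside these shares. All but 1 of the 1522 had no overlap between the arrays of the groups. Without regard to the call, set B lay wholly above wild type for 29.4% of genes and wholly below for 28%. The median log2 difference over all genes tested was 0.03. At the level of probe sets, 973 of 8920 were higher and 1048 lower. With each array centred on its median, the split was 1078 higher and 918 lower, and the median of all probe sets moved from 0.04 to 0.14. Without tumor 80 the counts were 476 and 653, and without tumor 81 they were 428 and 627. Without pool 42 they were 625 and 772. On the first principal component, which held 46.8% of the variance, the set B tumors lay at -43.2 and -51.1. The pools lay at 57.0 to 66.1 and the first tumors at -48.9 to -29.1.

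**Figure D1:**
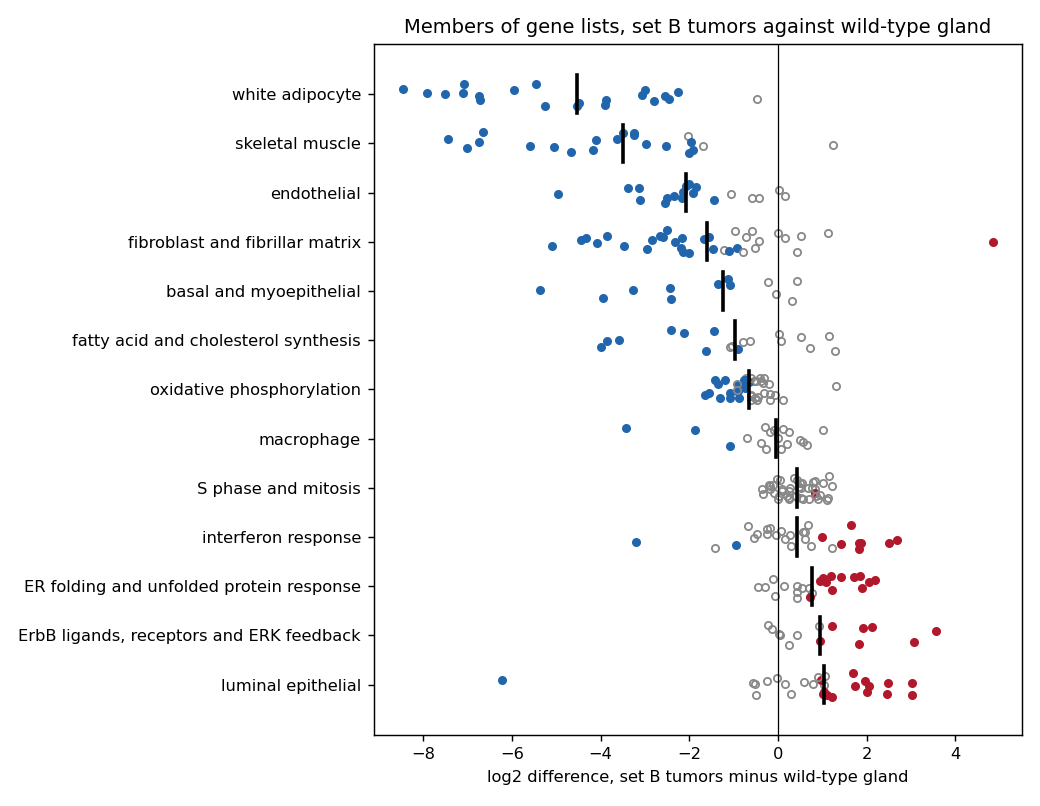
Log2 difference between set B tumors (2 arrays) and wild-type gland (3 pools) for the tested members of 13 gene lists, 1 point a gene. Filled red points were called higher and filled blue points called lower, open points were not called, and black bars are list medians. The white adipocyte median lies at -4.52 and the luminal epithelial median at 1.03.

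The 15 largest rises in set B included Scrg1, Npnt, 2 carbonic anhydrase genes and 2 collagen genes. Scrg1, named for its stimulation of cartilage formation, had intensities of 5870 and 10840 in tumors 80 and 81. It was at the floor in every pool, a rise of at least 78.7-fold (adjusted p = 0.000335, limma). Npnt, which encodes the integrin ligand nephronectin, had 15000 and 25870 in set B against 534, 324 and 184 in the pools. Its rise was 5.96 ± 0.89 on the log2 scale (SE, adjusted p = 0.000186). The 15 were taken among called genes without overlap, so both tumors lay above every pool by this choice. Itga8, an integrin chain that binds nephronectin, rose as well, with 910 and 1862 against 192, 250 and the floor. Its log2 rise was 2.94 ± 0.81 (adjusted p = 0.0156), a call that was lost without tumor 81 or without pool 42.

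2 carbonic anhydrase genes were among the 15 largest rises. Car6, the secreted form, had 5008 and 4714 in set B and only 1 pool above the floor, at 289 (log2 rise 5.08 ± 0.72). Car12, a form on the cell surface, had 6463 and 7807 against 235, 249 and 286 (4.80 ± 0.57, adjusted p = 2.58e-05). The cartilage-type collagen genes followed. Col11a1 had 7236 and 12490 against 363, 374 and 266 (4.85 ± 0.69). Col9a1 had 17220 and 27990 against 1129, 1106 and 864 (4.42 ± 0.45, adjusted p = 5.27e-06). That set B and wild type did not overlap for these 4 genes follows from how the 15 were chosen.

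Among enzymes, Xdh, needed for the release of milk fat globules, rose 24.2-fold, from 231 to 348 in the pools to 5020 and 10320 in set B. St3gal5, the synthase of the ganglioside GM3, rose 22.3-fold. The sialyltransferase gene St6galnac6 was at the floor in every pool and rose at least 22.4-fold, a call lost without tumor 80 or without tumor 81. Acsl4, which activates arachidonic acid, had 18060 and 17240 against 1293, 1038 and 852. Its rise of 4.08 ± 0.34 was the smallest of the 15 and the best determined by its error (adjusted p = 5.5e-07). The receptor genes Notch4 and Epha2 rose 18.3-fold and 17.6-fold, Epha2 not without tumor 81. The adaptor gene Shf rose 23.3-fold, and Npy, which encodes neuropeptide Y, 18.7-fold. A2m, a broad protease inhibitor, was called too, but its intensities in tumors 80 and 81 were 5372 and 817.

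**Figure D2:**
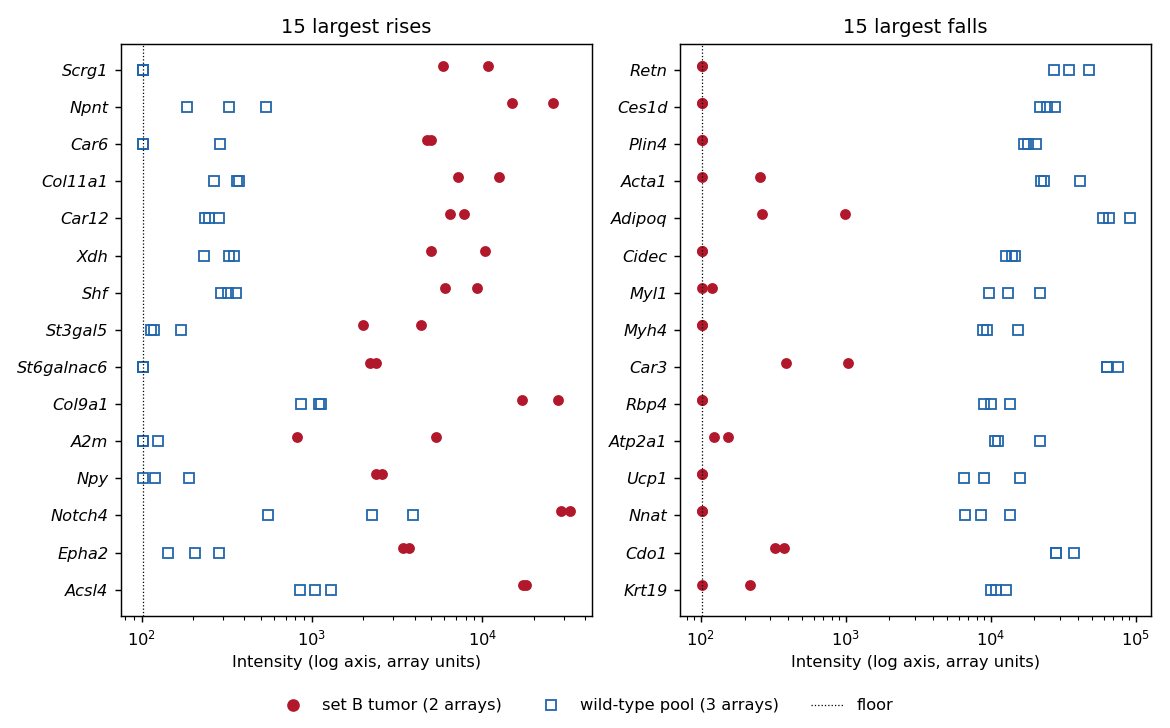
Intensity on each array, on a log axis, of the 15 genes with the largest rise (left) and the 15 with the largest fall (right) among called genes whose groups did not overlap. Red circles are the 2 set B tumors, open blue squares the 3 wild-type pools, and the dotted line is the floor of 101. Many falls end at the floor, such as Retn and Ces1d.

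The 15 largest falls included members of the white and brown adipocyte and skeletal muscle lists, and Krt19. Of the 15, 8 were at the floor in both tumors. Retn, which encodes the adipocyte hormone resistin, had 27320, 34520 and 47510 in the pools and fell at least 350-fold. Ces1d, a lipase of fat cells, fell at least 242-fold. Plin4, a coat protein of lipid droplets, fell at least 182-fold, and Cidec, which fuses droplets, at least 136-fold. Adipoq, which encodes adiponectin, kept 990 and 264 in set B against 65730, 59330 and 90700 (-7.11 ± 0.49, adjusted p = 8.46e-08, limma). All 5 are products of white fat. Ucp1, the uncoupler of brown fat, was at the floor in both tumors and at 6571 to 15890 in the pools, a fall of at least 96.6-fold. Nnat, which encodes the small membrane protein neuronatin, fell at least 90.5-fold and the cysteine dioxygenase gene Cdo1 88.9-fold.

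Fat cells store triglyceride and are the bulk of the wild-type gland. Of 21 white adipocyte genes tested, 20 fell and none rose, with a median log2 difference of -4.52 against 0.03 over all genes. The summed intensity of the list was 21242 and 27443 in set B and 422594 to 549898 in the pools. Pparg, the master transcription factor of fat cells, was at the floor in both tumors and at 3412 to 4245 in the pools. Cebpa, its partner factor, had 3546 and 7134 in set B against 36840, 44930 and 44500 (-3.06 ± 0.36). Lep, which encodes leptin, had 2190 and 3584 against 8257, 22190 and 23840 (-2.54 ± 0.51). Agt, the angiotensinogen gene, was the member without a call, at 786 and 1128 against 1554, 1114 and 1295. The count of 20 was the same when any 1 of the 5 arrays was left out. Of 5 brown fat genes, 3 fell, among them Cidea (-4.60 ± 0.89) and Cox8b (-3.04 ± 0.45).

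Enzymes of fatty acid and cholesterol synthesis were split. Of 18 tested, 8 fell and none rose, with a median of -0.96. Without tumor 80 or without tumor 81 only 4 fell, and without pool 42 1 rose. The falls lay mostly on the fatty acid side. Fasn, the fatty acid synthase, had 2973 and 8762 in set B against 51560, 51280 and 87460 (-3.59 ± 0.52, adjusted p = 0.000148, limma). Thrsp, a regulator of lipid synthesis, and the elongase gene Elovl6 fell too (-3.99 ± 0.48 and -3.86 ± 0.68). Acly, which makes cytosolic acetyl-CoA, fell by 2.40 ± 0.60, a call lost without tumor 80 or without tumor 81. In the cholesterol branch, Hmgcs1 and Idi1 fell (-1.43 ± 0.38 and -0.89 ± 0.28). Fdps had 3530 and 3618 in set B against 978, 1587 and 2004 and was not called (adjusted p = 0.0673). Srebf1, a transcription factor of lipid synthesis, was at 28480 and 42290 against 17990 to 23730, also without a call.

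Muscle fibers lie close under the mammary fat pad. Of 21 skeletal muscle genes, 18 fell and none rose (median -3.49). The list summed to 9107 and 7713 in set B, to 179420 in pool 40, and to 96063 and 97625 in pools 41 and 42. In set B, 8 of the 21 were at the floor on both arrays, among them the fast myosin gene Myh4 and the troponin gene Tnnt3. Acta1, the skeletal actin gene, had 41070, 22100 and 23460 in the pools and 255 and the floor in set B, a call lost without tumor 81. Myl1, a myosin light chain gene, fell 128-fold and the calcium pump gene Atp2a1 100-fold. Without pool 40, 1 gene of the list rose. Ckm, the muscle creatine kinase gene, had low signals in both groups, at 451 and 396 against 405, the floor and 140. In the pools these lie far under Acta1, and the groups overlap without a call, so they give no direction. The part of muscle tissue in other results was not tested.

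Fibroblasts make the collagen-rich stroma of the gland. Of 34 fibroblast and fibrillar matrix genes, 21 fell and 1, Col11a1, rose (median -1.61). The sum of the list was 69067 and 80945 in set B against 237042 to 294654. Dcn, which encodes the proteoglycan decorin, had 3904 and 1242 against 40730, 42090 and 50860 (-4.33 ± 0.40). Dpt, which encodes dermatopontin, fell by 5.09 ± 0.51, and Ogn, which encodes osteoglycin, was at the floor in both tumors and fell at least 21.8-fold. The main fibrillar collagens fell less, with -2.51 ± 0.42 for Col3a1, -2.18 ± 0.42 for Col1a2 and -2.01 ± 0.55 for Col1a1. Vim, the intermediate filament gene of stromal cells, was at 255 and 379 in set B and at the floor, 254 and 390 in the pools, which overlap. These are low signals next to those of Dcn on the same arrays.

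The basement membrane is the sheet of laminin and collagen IV under epithelium and around vessels. Of 18 of its genes, 9 fell and 1 rose (median -1.45). Laminin alpha 2 (Lama2) fell by 3.63 ± 0.41. Nidogen 1 (Nid1, -3.09 ± 0.42) and perlecan (Hspg2, -2.56 ± 0.43) fell too. Col4a1 had 3382 and 6491 in set B against 13920, 15610 and 16260 (-1.70 ± 0.34). Col4a5, another chain of collagen IV, rose, with 1880 and 3085 against 394, 694 and 310 (2.45 ± 0.66). Without tumor 81 or without pool 42 it was not called. Of 20 matrix protease and inhibitor genes, 8 fell and none rose (4 without tumor 80, 3 without tumor 81, 5 without pool 42). They include the inhibitor gene Timp3 (-1.73 ± 0.28) and the stromelysin gene Mmp3 (-3.21 ± 0.82). Mmp3 was not called without tumor 81.

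Endothelial cells line the vessels. Of 19 endothelial genes, 14 fell and none rose (median -2.07), with list sums of 9968 and 12284 in set B against 40484 to 52981. Vwf, the von Willebrand factor gene, was at the floor in both tumors and at 3102, 3439 and 2891 in the pools, a fall of at least 30.9-fold. The junction gene Cldn5 fell by 3.12 ± 0.56. Cdh5, which encodes VE-cadherin, fell by 2.16 ± 0.49. Pecam1, the platelet and endothelial adhesion gene, overlapped between groups, at 498 and 821 against 807, 809 and 989.

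Luminal cells line the ducts and make milk. Of 27 luminal genes, 14 rose and 1 fell (median 1.03), with sums of 264043 and 212115 in set B against 109800 to 117531. Without tumor 80, 7 rose. Epcam, the epithelial adhesion molecule, had 10820 and 11090 against 2710, 1622 and 1827 (2.45 ± 0.32, adjusted p = 6.01e-05). Spint1, an inhibitor of surface proteases, had 4151 and 5153 against 571, 599 and 527 (3.03 ± 0.30). Both groups were tight and far apart for these genes. The tight junction genes Cldn4, Cldn7 and Cldn3 rose by 3.02 ± 0.48, 1.96 ± 0.28 and 1.69 ± 0.36, and the epithelial transcription factor gene Ehf by 2.48 ± 0.40.

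Keratins did not follow one course. Krt18, the type I luminal keratin, had 27290 and 16070 in set B against 12090, 8833 and 10000, and was not called (adjusted p = 0.0619). Krt8, its partner, had 19110 and 11570 against 8962, 9583 and 11110, without a call. Krt19 fell from 9961, 12730 and 10850 to 217 and the floor, by 6.23 ± 0.79 (adjusted p = 4.77e-05). Cdh1, which encodes E-cadherin, lay at 1368 and 1467 against 1268 to 1632, inside the wild-type range.

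Hormone-sensing luminal cells carry the estrogen receptor and instruct their neighbours. Of 7 genes of this list tested, 4 fell and 1 rose. Foxa1, a partner of the estrogen receptor, was at the floor in both tumors and at 2716, 2188 and 2874 in the pools, a fall of at least 25.4-fold. Cited1, an estrogen receptor coactivator, had 434 and 559 against 6563, 4494 and 4663 (-3.39 ± 0.48). Wnt4, a signal made in response to progesterone, fell too, a call lost without any 1 of tumors 80 and 81 and pools 40 and 42. Esr1 itself was close to the floor in set B (104 and 131) and at the floor, 197 and 368 in the pools, and was not called. The exception was Socs2, a target of prolactin and STAT5 signaling, at 20500 and 29600 against 1662, 1482 and 1906 (3.88 ± 0.61). Without tumor 80, 2 of the list fell.

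Basal, or myoepithelial, cells wrap the ducts and contract. Of 12 such genes, 8 fell and none rose (median -1.24), and 5 fell without tumor 80. Smooth muscle myosin Myh11 had 4284, 5353 and 7012 in the pools and 167 and 103 in set B (-5.37 ± 0.54). Acta2, the smooth muscle actin gene, fell by 2.43 ± 0.38. Trp63, the gene of the basal cell transcription factor p63, fell by 1.12 ± 0.36. Vessels also express Myh11 and Acta2. Krt17 was at 697 and 663 against 650, 446 and 455, and was not called.

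Secretory genes were mixed. Of 16 milk genes, 2 rose (Xdh and Folr1) and 2 fell (Ltf and Cel), with a median of -0.06. These counts are near the shares over all genes, 10.9% higher and 12.2% lower. Lalba, the lactose synthase cofactor, had 39720 and 19370 in set B against 3138, 5805 and 2610, without a call (adjusted p = 0.0674). Csn2, which encodes beta-casein, had 13190 and 23760 against 41480, 43310 and 61740, also without a call. Ltf, which encodes lactoferrin, was 1629 and 142 in set B against 6775, 8377 and 8114. It was called only with tumor 81 and all 3 pools in the fit, and not with lot as a random block (adjusted p = 0.0759).

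Of 14 genes of the ErbB ligands, receptors and ERK feedback, 7 rose, 7 were not called and none fell (median 0.95). Only 3 rose without tumor 81 or without pool 42. Dusp6, the phosphatase that switches ERK off, had 16380 and 22650 against 1989, 2474 and 2507 (3.06 ± 0.50, adjusted p = 0.000399). Errfi1, an inhibitor of ErbB kinases, had 12500 and 14460 against 3160, 3390 and 2786 (2.12 ± 0.28, adjusted p = 6.3e-05). Phlda1 rose by 1.84 ± 0.38 and the receptor gene Erbb3 by 1.23 ± 0.36. Of the ligands, Egf rose from the floor in pools 41 and 42 and 291 in pool 40 to 1216 and 2382, and Tgfa from 102, 220 and the floor to 315 and 796. The calls of both ligands were lost without tumor 81 and without pool 42, and that of Tgfa also without pool 40. Spry4 and Etv4, also induced by ERK, were at 970 and 817 against 1027 to 1044 and at 1468 and 1603 against 1520 to 1878, neither called.

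Immediate early genes are the first to respond to ERK. Of 17 tested, 3 rose and 2 fell (median 0.12), where 10.9% and 12.2% of all genes did. Ier3, a survival gene, had 33620 and 16930 against 1556, 1588 and 1552 (3.93 ± 0.52). Ier2 and Nr4a1 rose by 1.15 ± 0.26 and 2.06 ± 0.48, Nr4a1 not without tumor 81. Klf4 and Egr2 fell (-2.89 ± 0.40 and -2.42 ± 0.54). Fos was at 2547 and 1442 against 1682, 1244 and 1044, and Myc at 1046 and 2493 against 1258 to 1674, both overlapping and not called.

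Chaperones of the endoplasmic reticulum fold secreted proteins, and their genes are switched on together by the unfolded protein response. Of 23 such genes, 12 rose and none fell (median 0.77). The count was 6 without tumor 80 and 3 without tumor 81. Factors of this response, such as ATF6, bind an element named ERSE, searched here on both strands as CCAAT, then 9 bases of any kind, then CCACG. In the 250 bases before the gene start it occurs in 0.113% of 32851 RefSeq promoters (GRCm38.p6). It occurs in 6 of the 21 list members with a promoter in that table, 3 of which rose. Their promoters are shown because the element is the feature they share, with the match in capitals.
Hspa5, chr2:34771840-34772089, plus strand: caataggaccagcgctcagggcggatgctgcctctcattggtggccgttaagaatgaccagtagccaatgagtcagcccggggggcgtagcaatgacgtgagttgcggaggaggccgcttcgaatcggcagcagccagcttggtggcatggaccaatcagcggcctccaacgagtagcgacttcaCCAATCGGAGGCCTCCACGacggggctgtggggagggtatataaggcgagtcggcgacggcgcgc
Pdia6, chr12:17266339-17266588, plus strand: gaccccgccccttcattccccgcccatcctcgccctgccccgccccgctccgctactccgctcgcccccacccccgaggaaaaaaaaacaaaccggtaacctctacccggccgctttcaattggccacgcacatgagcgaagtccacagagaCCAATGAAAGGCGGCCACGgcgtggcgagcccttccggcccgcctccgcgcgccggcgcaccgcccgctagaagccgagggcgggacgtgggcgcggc
Creld2, chr15:88819396-88819645, plus strand: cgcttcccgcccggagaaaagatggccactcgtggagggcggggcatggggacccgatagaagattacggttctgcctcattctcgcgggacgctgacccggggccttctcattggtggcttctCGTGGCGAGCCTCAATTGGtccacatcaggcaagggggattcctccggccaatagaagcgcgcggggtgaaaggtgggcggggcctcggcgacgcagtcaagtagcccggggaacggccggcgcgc
Hspa5, the main chaperone BiP, has its match starting 65 bases before the gene start. It had 25850 and 27360 in set B against 12860, 13440 and 13410 (1.01 ± 0.26, adjusted p = 0.011, limma). Pdia6, a disulfide isomerase, had 7730 and 10260 against 2093, 3531 and 1844 (1.90 ± 0.42), a call lost without tumor 81. Creld2, also a disulfide isomerase, had 2278 and 2553 against 1236, 1535 and 1668 (0.72 ± 0.25, adjusted p = 0.0495). Set B lay above wild type without overlap for all 3, as nearly all called genes had no overlap. Hspa5 and Creld2 were not followed singly with an array left out.

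The other members with the element were not called. Hsp90b1 was at 15140 and 21060 against 12190 to 14120, Dnajc3 at 3051 and 3848 against 1770 to 2385, and Canx at 1005 and 1420 against 1186 to 2073. Canx, the lectin chaperone calnexin, was thus the one that overlapped. Members without the element rose as well. P4hb, another disulfide isomerase, had 8634 and 8110 against 2298, 1144 and 3052 (2.06 ± 0.33). Xbp1, a transcription factor of the response, had 30100 and 20770 against 9245, 9815 and 8741 (1.43 ± 0.22, adjusted p = 0.000246, limma). Its call was not followed singly with an array left out. Trib3 and Dnajb9 rose by 2.19 ± 0.60 and 1.86 ± 0.45, calls lost without tumor 80 or without tumor 81, that of Trib3 also without pool 40. The stress factor genes Atf4 and Ddit3 were within or next to the wild-type range, at 6346 and 6820 against 6808 to 6928 and at 861 and 648 against 564 to 989.

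**Figure D3:**
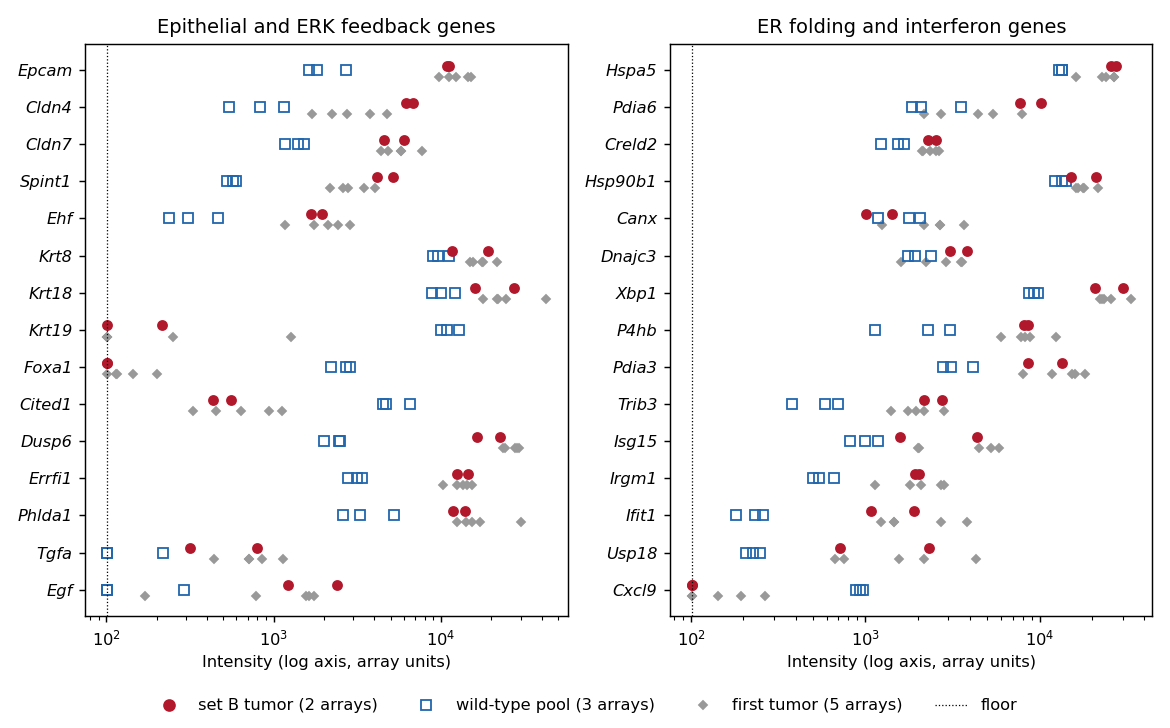
Intensity on each array, on a log axis, of epithelial and ERK feedback genes (left) and of ER folding and interferon genes (right). Red circles are the 2 set B tumors, open blue squares the 3 wild-type pools, gray diamonds the 5 first tumors, and the dotted line is the floor of 101. Krt19, Foxa1, Cited1 and Cxcl9 are the genes shown with set B far below the pools.

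Interferons raise antiviral genes through the element ISRE, searched on both strands as GAAA, then 2 bases of any kind, then GAAA. Of 28 interferon response genes, 8 rose and 2 fell (median 0.43). Without tumor 80, 2 rose and 1 fell, and without pool 41 or without pool 42, 5 rose. The element occurs in 2.98% of all promoters in the 250 bases before the gene start, where overlapping matches count once. It occurs in 8 of the 23 members with a promoter, 3 of which rose. These 3 are shown with the matches in capitals, which merge where they overlap.
Isg15, chr4:156200819-156201068, minus strand: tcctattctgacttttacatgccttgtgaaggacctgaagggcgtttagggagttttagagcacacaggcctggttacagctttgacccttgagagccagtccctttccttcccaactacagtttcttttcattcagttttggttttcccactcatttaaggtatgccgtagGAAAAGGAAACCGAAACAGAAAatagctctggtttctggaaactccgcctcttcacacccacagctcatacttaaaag
Irgm1, chr11:48871421-48871670, minus strand: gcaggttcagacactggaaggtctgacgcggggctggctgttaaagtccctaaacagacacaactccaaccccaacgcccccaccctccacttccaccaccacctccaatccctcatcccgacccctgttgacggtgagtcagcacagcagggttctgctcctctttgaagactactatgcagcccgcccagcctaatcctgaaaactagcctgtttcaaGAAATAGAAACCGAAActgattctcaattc
Ifit1, chr19:34640639-34640888, plus strand: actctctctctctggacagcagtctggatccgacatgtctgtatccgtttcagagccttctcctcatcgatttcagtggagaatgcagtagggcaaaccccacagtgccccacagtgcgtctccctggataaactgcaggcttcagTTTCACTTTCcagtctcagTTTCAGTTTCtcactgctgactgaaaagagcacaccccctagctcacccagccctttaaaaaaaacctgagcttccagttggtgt
Ifit1, an antiviral RNA-binding protein, had 1892 and 1073 in set B against 260, 181 and 233 (2.68 ± 0.64, adjusted p = 0.00693, limma). Isg15, a ubiquitin-like modifier, had 4405 and 1579 against 1184, 991 and 812 (1.42 ± 0.47). Irgm1, an immunity GTPase, had 1940 and 2026 against 661, 541 and 499 (1.82 ± 0.37). Tumor 80 was clearly the higher of the pair for Ifit1 and Isg15. Neither gene overlapped between the groups, like nearly all genes called. Ifit1 was not called without tumor 80, and Isg15 and Irgm1 were not followed singly with an array left out.

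The 5 others with the element, Gbp2, Gbp3, Igtp, Rsad2 and Ifit3, were not called, and Ifit3 was at 586 and 599 against 475 to 489. Of members without a match there, Usp18 had 2336 and 714 against 208, 251 and 227 (2.50 ± 0.82), and Irf7, the interferon master factor, rose by 1.84 ± 0.44. Usp18 was called only with tumor 80 and all 3 pools in the fit, and not with lot as a random block. Cxcl9, a chemokine induced by interferon gamma, fell from 939, 889 and 971 to the floor, at least 9.19-fold. Genes of antigen presentation were not raised with them. Of 10 MHC class II genes, 3 fell and none rose, among them H2-Aa, at 5171 and 1898 against 16580, 20910 and 19650 (-2.60 ± 0.60). No class II gene was called without tumor 81, and 1 rose without pool 41. Of 6 class I genes, 1 rose (Pdia3, shared with the ER folding list) and H2-K1 was at 47680 and 48300 against 60070 to 69970, not called.

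In muscle and fat the same search gave other shares. The E-box CAGCTG, which muscle factors of the MyoD family bind, occurs in 10 of 15 skeletal muscle promoters in the table and in 13.0% of all promoters. Of these 10 genes, 7 fell, against 18 of 21 in the whole list. TTGCNNAA, a site of the C/EBP factors, occurs in 4 of 14 white adipocyte promoters (Cidec, Lep, Pparg and Rbp4) and in 9.56% of all. All 4 fell. Another 3 motifs were searched in the same way. TTTGAA, named CHR and found at genes of mitosis, occurs in 11 of 37 S phase and mitosis promoters, none of a called gene, and in 16.0% of all. A single form of the CArG box (CCATA directly followed by TTAGG) occurs in none of 6 basal promoters and in 0.0609% of all. A single form of the MEF2 site (CTATT directly followed by TATAG) occurs in none of 15 muscle promoters and in 0.14% of all. Other forms of the CArG box and the MEF2 site were not searched, so the elements may still be present. A match describes these letters and is not evidence of binding.

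Immune cell genes were lower or not called. Of 18 macrophage genes, 3 fell and none rose (median -0.04). The sum of the list was 87460 in tumor 80, 47107 in tumor 81 and 71250 to 73601 in the pools, so that the set B tumors lay on either side of the wild-type range. Mrc1, the mannose receptor of tissue macrophages, had 655 and 332 against 1738, 1517 and 1916 (-1.88 ± 0.46), a call lost without tumor 81. Adgre1, which encodes the macrophage antigen F4/80, was at 484 and 286 against 518, 554 and 140, and Cd68 at 2573 and 2188 against 1959 to 2447, neither called. Without tumor 80, 2 of the list fell, and without tumor 81, 1 fell and 1 rose.

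All 3 mast cell genes tested fell, a count that held with any 1 array left out. The protease gene Cma1 fell from 3831, 5331 and 5192 to 395 and 234 (-3.96 ± 0.61). Of 10 B and plasma cell genes, 3 fell, among them the antibody joining chain gene Jchain, from 4601, 5528 and 5235 to 792 and 295 (-3.40 ± 0.43). None of 9 T and NK cell genes tested was called (1 fell without pool 42), and Cd3e was near the floor on all 5 arrays (103 and 126 in set B, 106 to 235 in the pools). Of 5 neutrophil genes 1 fell (none without tumor 80, tumor 81 or pool 42), and of 3 red blood cell genes the globin gene Hba-a1 fell (33670 and 12010 against 50060 to 102500, not called without tumor 81). Of 5 nerve and Schwann cell genes only Sox10 rose, at 12720 and 13960 against 4122 to 4499. It was not called without tumor 81, and 2 of the list rose without pool 41. Sox10 is also a factor of mammary epithelial cells.

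Of 15 chemokine and receptor genes, 2 rose and 3 fell, where 10.9% and 12.2% of all genes did. The neutrophil attractant Cxcl1 had 2239 and 1497 against the floor, 221 and 263 (3.34 ± 0.42), and the receptor gene Cxcr4 had 2169 and 2240 against 657, 587 and 541 (1.89 ± 0.29). Ccl5, which draws T cells, and Ccl11, which draws eosinophils, fell. None of the 3 falls was called without tumor 81, and that of Ccl5 was also lost without tumor 80 or pool 40. Of 14 acute phase and complement genes, 3 rose and 6 fell. Lcn2, an iron-trapping protein of inflamed epithelium, had 56460 and 41380 against 10220 to 13200 (2.02 ± 0.37), and Lbp, which binds bacterial lipopolysaccharide, rose by 2.28 ± 0.31. Orm1, which encodes the plasma protein orosomucoid, was at the floor in both tumors and fell at least 56-fold.

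Of 45 S phase and mitosis genes, 1 rose and none fell (median 0.44). Without regard to the call, 22 of the 45 lay wholly above wild type and 1 wholly below, against 29.4% and 28% of all genes. The gene that rose was Birc5, which encodes survivin, at 1675 and 1413 against 996, 855 and 762 (0.83 ± 0.25, adjusted p = 0.0274, limma). Its call was lost without tumor 80, tumor 81, pool 41 or pool 42, and with lot as a random block (adjusted p = 0.0565). Without pool 40, 2 of the list rose. Among members that overlapped between groups, Mki67, the proliferation marker, was at 1593 and 2511 against 1798, 1171 and 1234, and Top2a, a topoisomerase of dividing cells, at 717 and 464 against 426 to 787. Of 14 genes of the G1 phase, 3 fell and none rose. Cdkn2c, an inhibitor of cyclin D kinases, had 2353 and 1441 against 6138, 8241 and 8948 (-2.06 ± 0.29). Ccnd1, which encodes cyclin D1, was at 5194 and 4920 against 3509 to 4521, above every pool but not called. The count of falls was 1 without tumor 80, tumor 81 or pool 42.

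Oxidative phosphorylation is the respiration of mitochondria. Of 41 of its genes, 18 fell and none rose (median -0.66). The count depended on single arrays: 7 without tumor 80, 5 without tumor 81, 10 without pool 40, 12 without pool 41 and 9 without pool 42. With lot as a random block it was 11. Sdhb, a subunit of complex II, had 5404 and 4238 against 12490, 15420 and 17700 (-1.65 ± 0.29), and Cyc1, cytochrome c1, fell by 1.34 ± 0.29. Of 17 glucose genes, 3 rose and 1 fell, where 10.9% and 12.2% of all genes did. Slc2a1, the main glucose transporter of epithelium, had 3048 and 2323 against 346, 636 and 453 (2.52 ± 0.44), and Aldoc, an aldolase, had 39350 and 40060 against 2065 to 3518 (3.84 ± 0.66). Hk2, the hexokinase of muscle and fat, fell by 2.59 ± 0.39.

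Of 7 carbonic anhydrase genes, 4 rose (Car6, Car12, Car8 and Car2) and Car3, the form of fat and muscle, fell by 6.73 ± 0.43. Of 25 antioxidant genes, 3 rose and 5 fell, where 10.9% and 12.2% of all genes did. Gpx3, the plasma glutathione peroxidase, had 42670, 42610 and 42660 in the pools and 1779 and 1451 in set B (-4.73 ± 0.40). Hmox1, the inducible heme oxygenase, had 21670 and 17900 against 3185, 3376 and 2871 (2.65 ± 0.28, adjusted p = 7.84e-06). Gclm, a subunit of the enzyme that starts glutathione synthesis, rose by 1.31 ± 0.26. Without tumor 80, 1 antioxidant gene fell, and without tumor 81 or pool 42, 3 fell.

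In the ligand, receptor and other families below, called counts are to be read beside the shares over all genes, 10.9% higher and 12.2% lower. In the IGF axis, 2 of 12 genes rose and 4 fell. The binding protein gene Igfbp6 fell from 7743, 7408 and 8300 to 222 and 176 (-5.30 ± 0.41). The receptor gene Igf1r fell by 1.29 ± 0.37, and was not followed singly with an array left out. Irs1, the adaptor below this receptor, rose from the floor in every pool to 706 and 954, at least 8.09-fold, a call lost without tumor 81. Without tumor 80, 4 rose and 3 fell, and without tumor 81, none rose and 1 fell.

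In the TGF-beta and BMP group, 5 of 25 rose and 5 fell. Without tumor 80, 1 rose and 4 fell, without tumor 81, 3 of each, and without pool 40, 3 rose. The Id genes, inhibitors of helix-loop-helix factors, split. Id1 had 236 and 282 against 1911, 2010 and 1512 (-2.80 ± 0.44) and Id3 633 and 597 against 2487, 4298 and 3416 (-2.43 ± 0.34). Id2 had 22930 and 21550 against 6749, 5056 and 4210 (2.09 ± 0.28). No set B value overlapped with the pools for any of the 3, as for nearly all genes called. Fst, which encodes the activin trap follistatin, was at the floor in both tumors, and Inhbb, an activin subunit gene, rose by 2.18 ± 0.53. Inhbb was not followed singly with an array left out. The call of Fst was lost without tumor 80 or without tumor 81.

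Of 27 Wnt and Notch genes, 4 rose and 4 fell, without tumor 81, 2 rose and 1 fell, and without pool 40, 2 fell. Notch4 had 29050 and 32970 in set B against 2245, 3914 and 554 (4.19 ± 0.80), and Hey1, a target of Notch signaling, had 12100 and 9633 against 1223, 1719 and 1816 (2.79 ± 0.55). Notch4 was read from the brighter of its 2 tested probe sets, and a link between Notch4 and Hey1 was not tested. The Wnt receptor gene Fzd4 fell by 2.59 ± 0.26 (adjusted p = 5.27e-06). Of 15 sialyl- and galactosyltransferase genes, 3 rose and 4 fell. B4galt6, which makes lactosylceramide, had 4333 and 9039 against 584, 821 and 547 (3.29 ± 0.49). It acts 1 step before St3gal5 in the ganglioside route. St3gal6, which caps galactose, fell by 3.26 ± 0.41. Leaving out tumor 80 or tumor 81 left 2 of the falls. Of 10 BCL2 family genes, 4 rose and none fell, with members on both sides of the death decision: Bcl2, which protects, and Bak1, Bik and Bcl2l11, which promote death. Without tumor 80, 1 rose, without tumor 81 none, without pool 40 1 and without pool 42 2. Of 12 integrin and cadherin genes, 2 rose and 2 fell. Without tumor 80 none fell, without tumor 81 1 moved each way, and without pool 42 1 rose.

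Ribosomal protein genes lie among the brightest probe sets and need care. Of 24 tested, 1 rose and 3 fell (median -0.30), where 10.9% and 12.2% of all genes did. The rise was Rpl13a, at 10160 and 6813 against 5020, 3734 and 4162 (0.96 ± 0.29). It was not called without tumor 80 (adjusted p = 0.263), pool 41 (0.0867) or pool 42 (0.0712), or with lot as a random block (0.0592). Rpl41 had 62220 and 50410 in set B against 106700, 108500 and 166200 (-1.15 ± 0.28), and Rps10 and Rps28 fell too (-0.81 ± 0.24 and -0.80 ± 0.25). None of the 3 was called without tumor 81, where the difference was -1.0 for Rpl41, -0.49 for Rps10 and -0.60 for Rps28. Quantile normalization, which gives all arrays the same distribution, also ended the 3 calls. It gave -0.14 for Rpl41 (adjusted p = 0.637), -0.52 for Rps10 (0.0722) and -0.23 for Rps28 (0.414). With each array centred on its median, Rpl41 was called (-1.05), and Rps10 and Rps28 were not (-0.71 each). Rps28 was not called with any 1 array left out, nor Rps10 without pool 40 or pool 42. Of the 93 probe sets with a mean above 32000 on the other 12 arrays, 95.7% were lower in set B than in the first tumors, with a median of -0.58 on the log2 scale. Those 12 arrays include the first tumors and the pools. Choosing by their level favors lower values in set B in the brightest group, by an amount that was not estimated. Between 2000 and 8000 the median was 0.02. The median of the brightest set against wild type was -0.53. So a lower value of a very bright gene in set B went together with the lower top of its arrays, and their part in these calls was examined only through the quantile and median settings. Of 29 proteasome genes, 2 rose and none fell, again beside 10.9% and 12.2% of all genes. Neither rose without tumor 80, tumor 81, pool 41 or pool 42, and 1 rose without pool 40.

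**Figure D4:**
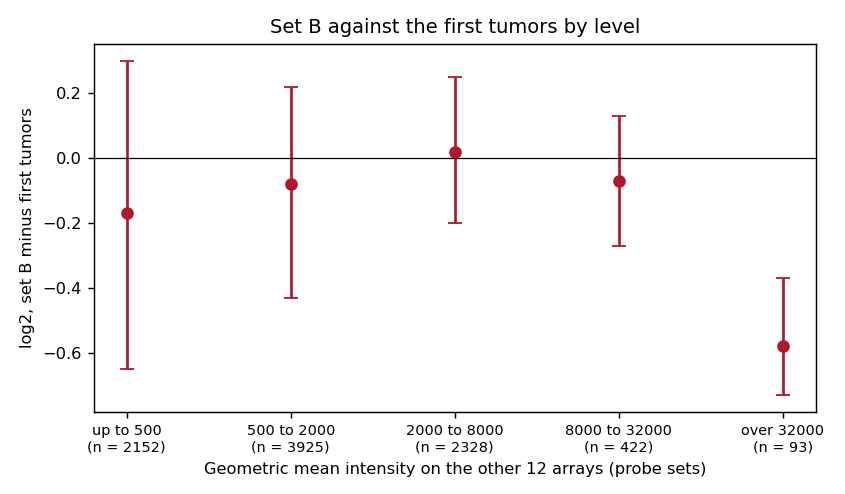
Log2 difference between set B (2 arrays) and the first tumors (5 arrays) for probe sets grouped by their geometric mean intensity on the other 12 arrays. Points are medians and bars span the interquartile range. The group above 32000 (93 probe sets) lies lowest, at -0.58. The other 12 arrays include the first tumors, so the grouping itself favors lower set B values in that group.

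The next comparison set the 2 set B tumors against the 5 first tumors, which bears on whether set B repeats them. No gene of 6578 and no probe set of 8920 was called (limma, 0%), while 952 probe sets (10.7%) and 624 genes (9.49%) had an unadjusted p under 0.05. Both set B arrays lay within the range of the first tumors for 46.5% of genes, above all of them for 6.23% and below all for 9.85%. Over probe sets the last shares were 6.11% and 10.6%. The absence of calls with 2 arrays does not show that the groups are alike. Leaving out 1 array gave up to 3 calls, all higher in set B: 3 without tumor 50, 2 without tumor 81, 1 without tumor 80 and 1 without tumor 26. All smallest adjusted p-values were 0.35.

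The genes with the smallest p were few and of mixed roles. Sema4b, a membrane semaphorin, had 590 and 819 in set B against 1362 to 2432 in the first tumors (-1.41 ± 0.27). Traf4, a signaling adaptor of epithelium, had 4236 and 3512 against 6864 to 10630 (-1.03 ± 0.20), and Tubb3, a tubulin, had 3104 and 2536 against 4860 to 6365. On the higher side, Pa2g4, a growth regulator that binds ErbB3, had 1896 and 1803 against 686 to 887 (1.22 ± 0.25). Cap1, an actin regulator, had 3249 and 4230 against 843 to 2442. Aqp1, the water channel of vessels, had 513 and 390 in set B and was at the floor in 4 of the 5 first tumors. For each of these 6 genes the groups did not overlap. Adjusted p was 0.35 for all.

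Set B and the first tumors share the wild-type pools as controls, so their differences from wild type are not independent and are only set side by side. The median white adipocyte difference was -4.52 in set B and -5.11 in the first tumors, and the skeletal muscle median -3.49 and -3.25. For luminal genes it was 1.03 and 1.06, for ER folding 0.77 and 0.68, and for ErbB and ERK feedback 0.95 and 1.15. For interferon response genes it was 0.43 and 0.71. Dusp6 was 3.06 above wild type in set B and 3.52 in the first tumors, Npnt 5.96 and 5.85, and Krt19 -6.23 and -5.78. S phase and mitosis genes had medians of 0.44 and 0.72, with 1 and 14 of 45 called higher. These counts rest on 2 set B and 5 first tumor arrays, so they differ in power and cannot be compared directly. The direct difference of the S phase and mitosis list between set B and the first tumors had a median of -0.31, against -0.05 over all genes. None of its genes was called in that comparison. Direct medians were -0.53 for ribosomal protein genes and 0.10 for proteasome genes.

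The 2 set B tumors also differed from each other. With 1 array each there is no test, and the genes below were chosen after their values were seen. Of 6578 genes, 493 were over 2-fold apart, 222 higher in tumor 80 and 271 higher in tumor 81. Of the 1522 genes called against wild type, 132 were over 2-fold apart. Chia1, an acidic chitinase, had 31380 in tumor 80 and 275 in tumor 81, 114-fold apart, with a wild-type geometric mean of 232. Saa2, an acute phase protein, had 2699 and 312, and the macrophage elastase Mmp12 had 6189 and 783. Cd14, a receptor for lipopolysaccharide, had 17450 and 3656. Tumor 80 was thus the higher one for several genes of inflammation. In the other direction, Irs2, an insulin receptor substrate, had 134 and 1897, the matrix gene Chad 1206 and 10050, and the glycine-cleavage gene Gldc 523 and 4700.

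Lists parted the pair too. Of 18 macrophage genes, 17 were higher in tumor 80 (median log2 gap 0.78), and of 15 chemokine genes 12 were (1.05). Of 18 basement membrane genes, all 18 were higher in tumor 81 (median -0.76). Proteasome genes (27 of 29 higher in tumor 80) and ribosomal protein genes (22 of 24) had medians of 0.44 and 0.42. S phase and mitosis genes were even, with 23 higher in tumor 80 and 22 in tumor 81. The share of all genes higher in tumor 80 without a fold cutoff was not counted. The 99th percentile of intensity was 28940 on the array of tumor 80 and 23358 on that of tumor 81. Its part in the gap of lists of bright genes was not tested. The gap of these lists is a difference between 2 single arrays, and its source was not tested.

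**Figure D5:**
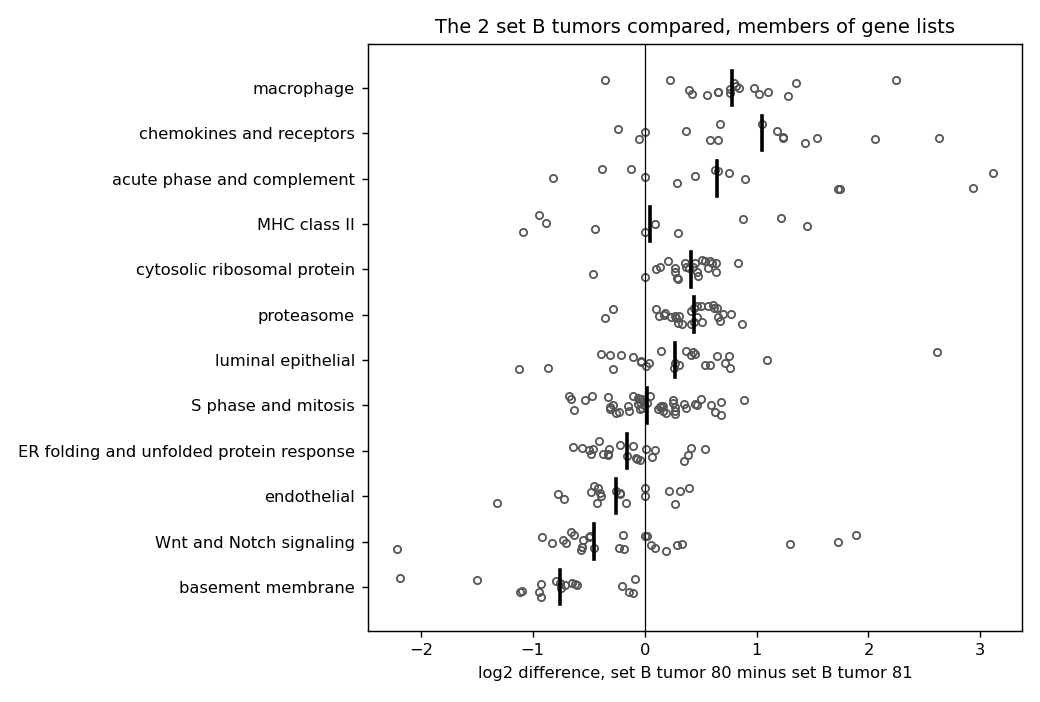
Log2 difference between set B tumor 80 and set B tumor 81 (1 array each) for the tested members of 12 gene lists, 1 point a gene, with black bars at the list medians. Macrophage and chemokine genes lie mostly to the right (higher in tumor 80) and basement membrane genes to the left.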

How the data were processed

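RNA of 14 mouse mammary samples was measured on 1-color oligonucleotide arrays, 1 sample an array. The authors deposited 1 linear intensity for each of 12488 probe sets and each array. How these values were computed is not stated in the labels or file headers. All arrays had close trimmed means (2% left out at each end), so the deposited intensities were taken as scaled by the authors and were not normalized again.

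The 20th percentile of all values, 101.42, served as a floor, and floored values were put on the log2 scale. Removed were 66 control probe sets and 3502 dim ones, which passed their array's 40th percentile on fewer than 2 arrays (the size of set B), leaving 8920. Floored values made up 2.99% of these. Where the lower group was only partly at the floor, the difference is also a lower bound, and errors take floored values as measured. Platform annotation gave 1 gene for 10855 probe sets, several for 396 (not named) and none for 1237. By gene number, 10839 symbols were updated (GRCm38.p6). Each of 6578 genes was read from its probe set of highest average log2 intensity. For 1 gene, Lasp1, a further probe set was called the other way.

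A single limma 3.58.1 model (R 4.3.3; lmFit, eBayes with intensity trend) held the 14 arrays as 4 groups, with 10 residual and 5.86 prior degrees of freedom. The number of arrays limits the precision. Tests are two-sided, with Benjamini-Hochberg adjustment over all probe sets tested, and errors are standard errors of the fit. Named genes are the 15 largest rises and falls among called genes whose groups did not overlap, the 5 smallest p-values in each direction where a comparison called none, up to 4 called members of each list, and other list members given with their values. The members and lists were chosen with earlier results of these data known. The other list members were not followed singly with an array left out. Where no lost call is stated for them, the call need not have held. Alternatives were other normalizations, floors and filters, fits with only the groups compared or with no trend, lot as a random block and leaving out each array of the groups compared (for single genes and lists, set B and wild type only); no adjacent gland was left out. Promoters were read from a RefSeq table with Python 3.11.15. The receptor encoded by the transgene is not reported here.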

Additional observations from a re-analysis of the deposited data

Results flagged for a closer look

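Aqp1 in the first tumors was flagged through tumor 24, at 124.7, while the other 4 were at the floor. With those 4 tied, any value above the floor would have been flagged, so this flag says nothing about tumor 24. The highest intensity of an array among the first tumors was 204436 in tumor 52, far above the other 4. With 14 groups of values checked in this way, chance flags about 1 in 20, a rate that does not hold for values tied at the floor.

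For Sema4b, both set B tumors lay below every wild-type pool (590 and 819 against 943 to 1310) and all 5 first tumors above (1362 to 2432). The difference between set B and the first tumors was -1.41 on the log2 scale and was not called (limma, adjusted p = 0.35).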

How the results depend on the processing

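Between set B and wild type, 973 probe sets were higher and 1048 lower. Leaving out 1 of these 5 arrays gave 428 to 806 higher and 627 to 868 lower, and leaving out a first tumor 926 to 1000 and 1028 to 1079. Other settings stayed within 1.5 times these counts, from 764 higher and 883 lower (lot as a random block) to 1314 and 1377 (only the 2 groups compared). Between set B and the first tumors there were no calls; without the filter on dim probe sets 1 was higher, and leaving out 1 array gave 0 to 3 higher and 0 lower. Of 153 genes called and followed, 130 kept their call under every setting other than leaving out an array, and 93 also with each of tumors 80 and 81 and pools 40, 41 and 42 left out; none reversed. The other arrays were not left out for single genes. The 153 were chosen largely for large changes in these same data, so they do not stand for all 1522 genes called. Without tumor 80, 33 lost the call, and without tumor 81, 54. Dropping the filter on dim probe sets ended 19 calls, lot as a random block 13 and quantile normalization 9. A fit with lot as a fixed term could not be made, since the lot of set B held no other group. No paired analysis was possible because the groups compared share no replicate numbers. Signals at the floor limit falls to lower bounds.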
